A study of Mus musculus
Mus spretus with 18 samples.

Results

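The 2 RNA sequencing libraries of cerebral cortex were set against the 12 libraries of the 6 other tissues of the same study, which are embryonic stem cells (ESC), heart, kidney, liver, lung and spleen. They were chosen by their tissue label, 2 of the 18 libraries of the series, and the 4 fibroblast libraries of the series were not used. All 14 libraries came from F1 hybrids of C57BL/6J and SPRET/EiJ mice, which come from Mus musculus and Mus spretus respectively, and no group carried a transgene or a treatment. The paper describes the mice used for the organs as female and states no sex for the ESC. Cortex, heart, kidney, lung, spleen and liver were taken as tissue samples at 8 weeks of age, so that neurons, glia and vessels of the cortex are sampled together. ESC were 2 clones grown in culture. The liver libraries belong to an earlier data set, and the strain name in their labels reads C57BL/7J × SPRET/EiJ for one and C57BL/8J × SPRET/EiJ for the other. Each tissue had 2 replicates, which the study describes as biological. The organs came from 2 animals, so that libraries of different organs can share an animal, and p-values measure the spread between such pairs.

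Neurons release transmitter from vesicles that fuse with the membrane of the presynaptic terminal, and the transmitter opens receptors held in place by scaffold proteins on the postsynaptic side. The brain also splices many transcripts in forms that other organs rarely make. Among these are micro-exons, exons of a few codons or less, whose inclusion in neurons depends on splicing regulators such as Srrm4, while Ptbp1, a repressor present in most other cells, keeps many neural exons out.

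Inclusion of an exon is given as percent spliced in (PSI), the share of transcripts that contain the exon, computed from junction reads scaled by effective length and running from 0 to 1. Gene levels are in TPM, a relative abundance of transcripts that is scaled by their length and sums to the same total in every library. The cortex libraries had the fewest junction reads over all skipped exon events, 46558287 and 48273341, against 62175924 to 129496306 in the other 12. The cortex replicates were close to each other. Pearson's r between them was 0.998 for log2(TPM + 1) and 0.992 for PSI, and the median absolute PSI difference between them was 0.00897.

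A gene was called higher or lower in cortex only if it differed in the same direction from each of the 6 other tissues, with the largest of the 6 limma p-values at an adjusted p under 0.05 and a difference of at least 1 on the log2(TPM + 1) scale to the nearest tissue. This scale understates the change of genes with low values. Of 21772 genes tested, 2957 were called higher (13.6%) and 125 lower (0.574%). Both cortex libraries lay above all 12 others for 23.6% of the genes and below all 12 for 3.73%, and this held for every called gene. The called-higher genes made up 29.97% and 30.75% of all TPM in the cortex libraries and between 1.04% and 3.07% in the other 12 (median 2.34%). The 125 lower genes made up 0.0863% and 0.0869% in cortex and between 0.655% and 1.29% elsewhere (median 1.10%). The rule favours higher calls. A gene could enter the test through cortex alone, while a lower call needed expression in all 6 other tissues. How much of the asymmetry between higher and lower calls comes from this was not tested. The asymmetry kept its direction under every setting tried, while its size changed with the rule and with scaling. With cortex set against the mean of the 6 other tissues, the share of higher calls among all calls was 66.0%. The median log2 level of broadly expressed genes stood at 0.33 in cortex, relative to the mean of the libraries, with tissue means from -1.05 in liver to 0.51 in ESC, and with each library centred on that median 2279 genes were higher and 378 lower, so that the share of higher calls went from 95.9% to 85.8%. For 883 of the higher genes every other library was under 1 TPM, and 310 had a log2 difference to the nearest tissue of at least 5. ESC were the nearest tissue for 1048 of the 2957 higher genes (35.4%), followed by lung for 606 (20.5%), kidney for 450 (15.2%), spleen for 390 (13.2%), heart for 374 (12.6%) and liver for 89 (3.01%).

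The label of the cortex libraries was checked against cell type markers. All 12 neuronal markers were called higher, with a median log2 difference of 4.60 to the nearest tissue (median over all genes tested 0, because 14700 of them lay inside the range of the other tissue means). Neurod6, a transcription factor of excitatory cortical neurons, was at 82.6 and 85.7 TPM in cortex and at most 0.00838 TPM in any other library. Slc17a7, which loads glutamate into vesicles, was at 851 and 1044 TPM in cortex, and its highest value elsewhere was 49.8 TPM in heart (log2 difference 4.42 ± 0.19 SE, adjusted p = 4.13e-08). Genes of excitatory neurons were called higher in 11 of 13 annotated copies, with Emx1 among the exceptions, and genes of inhibitory neurons in 10 of 11, with Pvalb the exception.

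Inhibitory neurons were marked by Gad1, which makes GABA, at 250 and 240 TPM in cortex and 0.0226 to 2.42 TPM elsewhere, and by Slc32a1, the vesicular GABA carrier, at 121.3 and 129.8 TPM against at most 0.187 TPM. Sst, the peptide somatostatin of one inhibitory class, was at 489 and 529 TPM against a median of 0 and a highest value of 0.43 TPM elsewhere. Vip, the peptide of another class, was at 61.9 and 84.2 TPM, and its highest value elsewhere was 0.286 TPM. No cortex value of these genes overlapped with another tissue.

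Glia were present as well. Oligodendrocyte and myelin markers were called higher in 11 of 15, with a median log2 difference of 4.93. Mbp, a main protein of myelin, was at 912 and 821 TPM in cortex and between 0.373 and 28.1 TPM elsewhere (log2 difference 4.93 ± 0.15, adjusted p = 1.87e-09). Cnp, an enzyme of myelinating cells, was not called, because ESC reached 283 TPM beside 291 and 261 TPM in cortex. Astrocyte markers were called in 6 of 10. Slc1a2, which takes up glutamate, was at 664 and 691 TPM in cortex and at most 41.3 TPM, in liver, while the water channel Aqp4, at 100 and 98.4 TPM, lay beside a kidney library at 96.0 TPM, and Glul, at 1170 and 1229 TPM, beside a liver library at 1174 TPM.

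**Figure D1:**
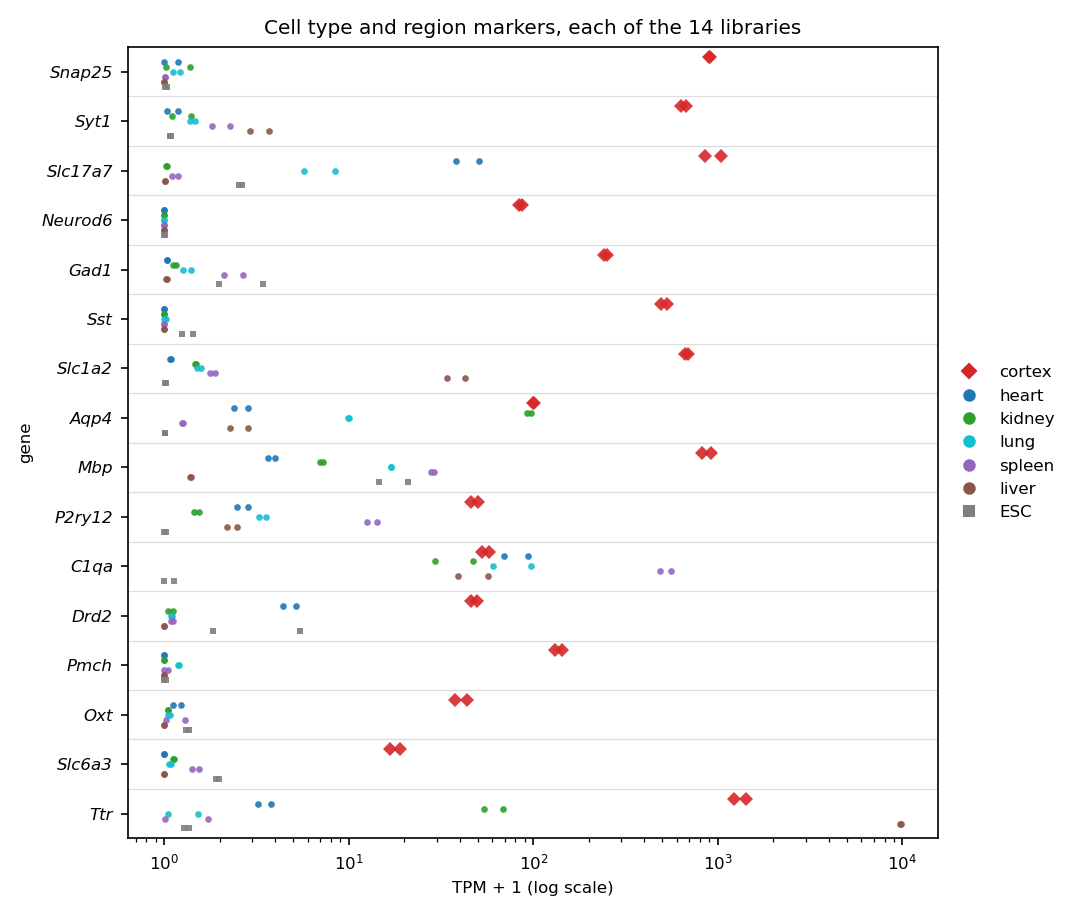
TPM + 1 of cell type and region marker genes on a log axis (x axis), 1 point per library for 14 libraries, with cortex as red diamonds and the other tissues in their own colours. Neuronal and myelin markers sit far to the right in cortex, such as Mbp at 912 and 821 TPM, while Aqp4 sits beside kidney and C1qa and Ttr fall inside the range of the other tissues.

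Markers of other cell types separated cortex less. Over all genes 13.6% were called higher and 0.574% lower. Of 9 microglia and macrophage markers only P2ry12 was called (11.1%), a share near that of all genes. P2ry12 was at 48.9 and 45.1 TPM in cortex and at most 13.1 TPM elsewhere, in spleen. The complement gene C1qa stood at 51.6 and 56.3 TPM inside a range of 0 to 558 TPM. None of 8 endothelial and mural markers and none of 7 erythroid markers was called, and the erythroid genes summed to 109 and 167 TPM in cortex against 0.70 to 7752 TPM elsewhere. The lowest sums were those of ESC, the 5 other organs lay at 554 TPM or more, and without ESC 5 of the 7 erythroid genes were lower in cortex. None of the 6 markers each of heart muscle, kidney, lung, spleen, liver and ESC was called higher in cortex. A higher call needs cortex above every other tissue, so a marker of a compared tissue could hardly be called. This count is therefore no check of the label. Without ESC, 1 of the 6 ESC markers was called higher, Sox2 (log2 difference 1.47). In whole tissue, fewer cells of a type and less RNA per cell cannot be told apart.

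Genes known from brain regions outside the cortex were found too. Markers of striatal neurons were called higher in 8 of 9. Drd2, a dopamine receptor, was at 44.9 and 48.7 TPM in cortex and at most 4.46 TPM elsewhere. A further set of regional genes was chosen after values had been seen. Of 6 hypothalamic neuropeptides 5 were called higher. Pmch, which encodes melanin-concentrating hormone, was at 142 and 130 TPM and listed at 0 or up to 0.195 TPM elsewhere (log2 difference 6.85 ± 0.07, adjusted p = 3.06e-12), oxytocin (Oxt) at 36.4 and 42.6 TPM, vasopressin (Avp) at 33.8 and 42.6 TPM, and Hcrt, the precursor of orexin, at 19.0 and 25.8 TPM. Both libraries held these peptides. Trh, the fifth, lost its call without ESC replicate 1 (log2 difference 0.70).

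Genes of dopamine and serotonin neurons, whose cell bodies lie in the midbrain and brainstem, were called in 3 of 4. Slc6a3, the dopamine transporter, was at 18.0 and 15.6 TPM against at most 0.975 TPM elsewhere, and Tph2, which makes serotonin in neurons, at 16.1 and 13.1 TPM against at most 2.18 TPM. Th, which makes the precursor of dopamine, was at 27.1 and 22.6 TPM beside 12.9 TPM in kidney replicate 2, and its call (adjusted p = 0.0386) was lost without cortex replicate 1 or 2 (adjusted p = 0.167 and 0.128), with any one replicate of heart, lung, spleen, liver or ESC left out (0.0516 to 0.0613), and without kidney replicate 1, where the difference was 0.88. By contrast, 3 genes of cerebellar neurons, Cbln3, Gabra6 and Pcp2, stood at 0.0286 to 0.562 TPM in the cortex libraries. These too were chosen after values had been seen, and Cbln1, a cerebellar gene of the list described below, was called higher. The 4 Hox genes, which mark hindbrain and spinal cord, stood at 0.0284 to 0.435 TPM. Of the markers of choroid plexus and ependyma 1 of 8 was called, Otx2, at 5.15 and 4.70 TPM, beside 13.6% of all genes. Of 8 markers of hippocampal granule cells, thalamus and cerebellum 4 were called higher, C1ql2, Cbln1, Rgs16 and Tcf7l2, and Prox1, Prkcd, Calb1 and Dsp were not. C1ql2 was at 18.9 and 19.7 TPM in cortex, while Tcf7l2, at 11.4 and 10.7 TPM, fell below the limit with the libraries centred on their median. Ttr, the main product of choroid plexus and also of liver, was at 1422 and 1223 TPM in cortex and 9823 TPM in the highest liver library. Without liver Ttr was called higher in cortex, with a log2 difference of 4.43 to the nearest tissue. The libraries labelled cortex thus held RNA of genes known from striatum, hypothalamus and midbrain, and how much of the values below came from such regions was not tested.

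One comparison library stood apart. In kidney replicate 2 the adrenal enzyme Cyp11b1 was at 423 TPM and the steroid carrier Star at 561 TPM, against 0.01 and 1.77 TPM in kidney replicate 1. Genes of secretory granules that neurons share with the adrenal medulla were high there too, with Chgb at 100.8 TPM and Scg2 at 30.1 TPM, against 0.13 and 0.02 TPM in kidney replicate 1. Without kidney replicate 2, 2932 genes were higher and 119 lower in cortex, and 460 exon events were higher and 258 lower. Chgb, at 435 and 485 TPM in cortex, had a log2 difference of 5.42 ± 1.52 (adjusted p = 0.0215) with that library and 7.52 without it (adjusted p = 4.48e-10). Without either cortex replicate the call on Chgb was lost (adjusted p = 0.093 and 0.104).

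Genes of the synapse were among the 12 with the largest difference to the nearest tissue. Snap25 (chr2:136713439-136782428 in mm10), a membrane protein of the vesicle fusion complex, was at 894 and 910 TPM in cortex and between 0 and 0.376 TPM in the other 12 libraries, with a median of 0.0129 TPM. The log2 difference to the nearest tissue was 9.58 ± 0.14 (adjusted p = 1.1e-11). Cplx1, which clamps that complex until calcium enters, was at 869 and 870 TPM against at most 1.00 TPM (8.82 ± 0.11). Gria2 (chr3:80681450-80804227), the AMPA receptor subunit that limits calcium entry, was at 371 and 378 TPM against at most 0.269 TPM (8.30 ± 0.12). Slc6a11, a GABA transporter of glia, was at 253 and 237 TPM against at most 0.0686 TPM (7.86 ± 0.07).

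The 12 genes with the largest log2 difference also held Sst, the neuronal vesicle protein Nrsn1 at 477 TPM in both cortex libraries, Rasgrf1, an exchange factor for Ras, at 319 and 317 TPM, and Hpca, a calcium sensor of hippocampal and cortical neurons, at 537 and 595 TPM. Their log2 differences were 8.58, 8.27, 7.91 and 7.75. A further 3 were noncoding. Mir770, at 1805 and 1728 TPM, lies inside Meg3, an imprinted noncoding RNA, and the counts of fragments over both genes were shared out by the authors, so that its value cannot be told apart from that of Meg3. Gm25749 and MIAT_exon5_2 were at 537 and 548 TPM and at 466 and 404 TPM.

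Presynaptic genes were higher in cortex almost throughout. Of 37 annotated copies of genes for synaptic vesicles and release 35 were called higher, with a median log2 difference of 4.33. Their TPM summed to 10540 and 11377 in cortex and to between 53.6 and 393 in the other libraries. Syt1, the calcium sensor of release, was at 627 and 672 TPM against at most 2.67 TPM (7.63 ± 0.16, adjusted p = 1.71e-10), and Syp, a protein of the vesicle membrane, at 654 and 740 TPM against at most 5.35 TPM. Vamp2, the vesicle partner of Snap25, was found at 11.4 to 146 TPM in the other libraries and at 766 and 843 TPM in cortex, a smaller difference of 2.51 ± 0.15. The exceptions were Sypl and Unc13b, a priming factor, which was at 17.5 and 18.4 TPM in cortex beside 22.0 TPM in an ESC library.

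Every receptor gene that could be tested for glutamate (24 of 24) and for GABA and glycine (18 of 18) was called higher, with median log2 differences of 3.86 and 5.13. Grin1, the obligatory subunit of NMDA receptors, was at 169 and 189 TPM against at most 0.285 TPM, and Grm5, a metabotropic glutamate receptor, at 99.4 and 105 TPM against at most 0.0144 TPM. Grik3, a kainate receptor subunit, was closer, with 45.8 and 50.04 TPM in cortex and 18.0 TPM in an ESC library. Glra3, a glycine receptor subunit, was low in cortex itself, at 3.90 and 4.44 TPM, and its difference fell below the limit of 1 with the libraries centred on their median (0.98). Gabrg1, a GABA receptor subunit, did so without ESC replicate 2 (0.75).

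Voltage-gated channels were called higher in 37 of 40, with a median of 3.46. Scn1a, a sodium channel that carries the action potential, was at 82.4 and 81.3 TPM against at most 0.0342 TPM. The exceptions were Cacna1h, Scn3b and Cacna1c, of which Scn3b reached 206 TPM in lung and Cacna1c, the main calcium channel of heart muscle, 79.6 TPM in heart. Neuropeptides and growth factors were called in 21 of 23, the exceptions being Bdnf at 10.5 and 13.1 TPM and Nrg1 at 9.80 and 11.1 TPM.

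Postsynaptic and structural genes were less uniform. Scaffold and signalling genes of the postsynapse were called higher in 23 of 30, with a median of 2.44. Camk2a, a kinase of the postsynaptic density, was at 1046 and 1075 TPM against at most 24.9 TPM, in heart. Dlg4, the scaffold PSD-95, was at 361 and 386 TPM against at most 17.95 TPM. Dlg1, Gphn, Camk2d, Shank3, Iqsec1, Homer2 and Homer3 were not called. Genes of the axonal and dendritic cytoskeleton were called in 32 of 40 annotated copies (median 2.94), among them the motor Kif5a, at 1363 and 1274 TPM against at most 7.09 TPM, and genes of cell adhesion and axon guidance in 26 of 35 (median 2.88).

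Endocytosis and membrane traffic genes, which every cell uses, were called in 13 of 34, beside 13.6% of all genes, with a median log2 difference of 0.75. The neuronal dynamin Dnm1, at 688 and 755 TPM against at most 13.0 TPM, had a difference of 5.73 ± 0.23, and Synj1, a lipid phosphatase that uncoats vesicles, one of 2.92. The clathrin light chains Clta and Cltb were not called. None of 19 collagen and matrix genes was called in either direction, and without ESC 3 of them were lower, Col14a1 (log2 difference -2.92), Dcn (-1.75) and Bgn (-1.42).

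The 8 genes furthest below every other tissue included genes of immunity and of lipid metabolism. H2-Eb1 (chr17:34305867-34316674), a class II antigen-presenting chain, was at 3.32 and 4.53 TPM in cortex and between 41.3 and 3017 TPM elsewhere (log2 difference -3.37 ± 0.31, adjusted p = 1.37e-05). It was the only one of 14 genes of antigen presentation and complement that was called, as B2m, the light chain of class I molecules, stood at 244 and 253 TPM in a range of 77.8 to 4426 TPM. That count rests on ESC, since without them 13 of the 14 were lower in cortex, B2m by a log2 difference of -1.10. The interferon-induced genes Ifitm2, at 20.1 and 19.9 TPM against at least 205 TPM, and Bst2, at 14.3 and 16.9 TPM against at least 93.7 TPM, differed by -3.31 and -2.72. C1s, a complement protease, was at 1.16 and 0.923 TPM against at least 19.8 TPM.

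The nucleobase transporter Slc43a3 had the largest difference of all lower genes, at 1.10 and 0.924 TPM in cortex and between 20.1 and 223 TPM elsewhere (-3.52 ± 0.29, adjusted p = 5.34e-06). Agpat2, an enzyme of triglyceride and phospholipid synthesis, was at 1.09 and 1.35 TPM against at least 14.9 TPM, Gstm2, a glutathione transferase, at 3.13 and 3.21 TPM against at least 25.6 TPM, and Slc12a7, a potassium and chloride cotransporter, at 3.51 and 3.34 TPM against at least 27.8 TPM. None of these was absent from cortex, and all 12 other libraries lay above both cortex values for each of them. Of the 125 lower genes 20 differed by 2 or more on the log2 scale.

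Neural splicing regulators were called higher in 17 of 23 annotated copies, with a median log2 difference of 2.61. Srrm3, a regulator of micro-exons, was at 25.8 and 30.9 TPM in cortex and at most 0.113 TPM elsewhere (4.77 ± 0.08, adjusted p = 3.77e-11). Its relative Srrm4 was at 25.8 and 25.6 TPM, but heart held 13.2 and 11.9 TPM beside a median of 0.445 TPM over the other 12 libraries, and its difference of 0.98 ± 0.11 was just under the limit of 1. Srrm4 passed the limit with a pseudocount of 0.1 (1.03) and without heart replicate 1 (1.05).

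Of the Rbfox family, which binds introns next to neural and muscle exons, Rbfox3 separated cortex most, at 110 and 124 TPM against at most 1.19 TPM (5.82). Rbfox1 was at 244 and 245 TPM in cortex and at 27.7 and 27.9 TPM in heart, with a median of 0.595 TPM over the other 12 (3.09 ± 0.10, adjusted p = 2.72e-09). Rbfox2 was found in every tissue, at 129 and 137 TPM in cortex and 7.37 to 71.7 TPM elsewhere, and its difference of 1.08 ± 0.12 was under 1 without ESC replicate 2 (0.88) and with centred libraries (0.50).

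Other neuronal RNA-binding proteins were higher in cortex as well. Celf3 was at 145.6 and 150.6 TPM against at most 1.03 TPM, Celf4 at 302 and 318 TPM against at most 5.42 TPM, and Elavl4 at 60.6 and 63.3 TPM against at most 0.593 TPM. Nova1, which regulates exons of synaptic genes, was at 42.4 and 41.0 TPM against at most 3.66 TPM, and Nova2 at 40.6 and 43.5 TPM against at most 11.6 TPM. Ptbp2, the neuronal relative of Ptbp1, was at 111 and 109 TPM against 8.11 to 41.6 TPM (1.75).

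None of the 10 regulators known for splicing outside neurons was called in either direction. Ptbp1 was lower in cortex than in all other libraries, at 25.01 and 22.4 TPM against 31.4 to 372 TPM, but the log2 difference of -0.41 to the nearest tissue was under the limit. Rest, which silences neuronal genes including Srrm4 outside neurons, was at 4.38 and 3.76 TPM against 5.30 to 80.6 TPM (-0.32). Both passed the limit with centred libraries, at -1.11 and -1.14. Esrp2, an epithelial regulator, was at 0.117 and 0.164 TPM against 0.293 to 55.3 TPM. Mbnl2, a regulator of mature splice forms, was at 170 and 173 TPM and not called (1.07, adjusted p = 0.28). None of the 29 exons tested in the neural regulators themselves was called.

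**Figure D2:**
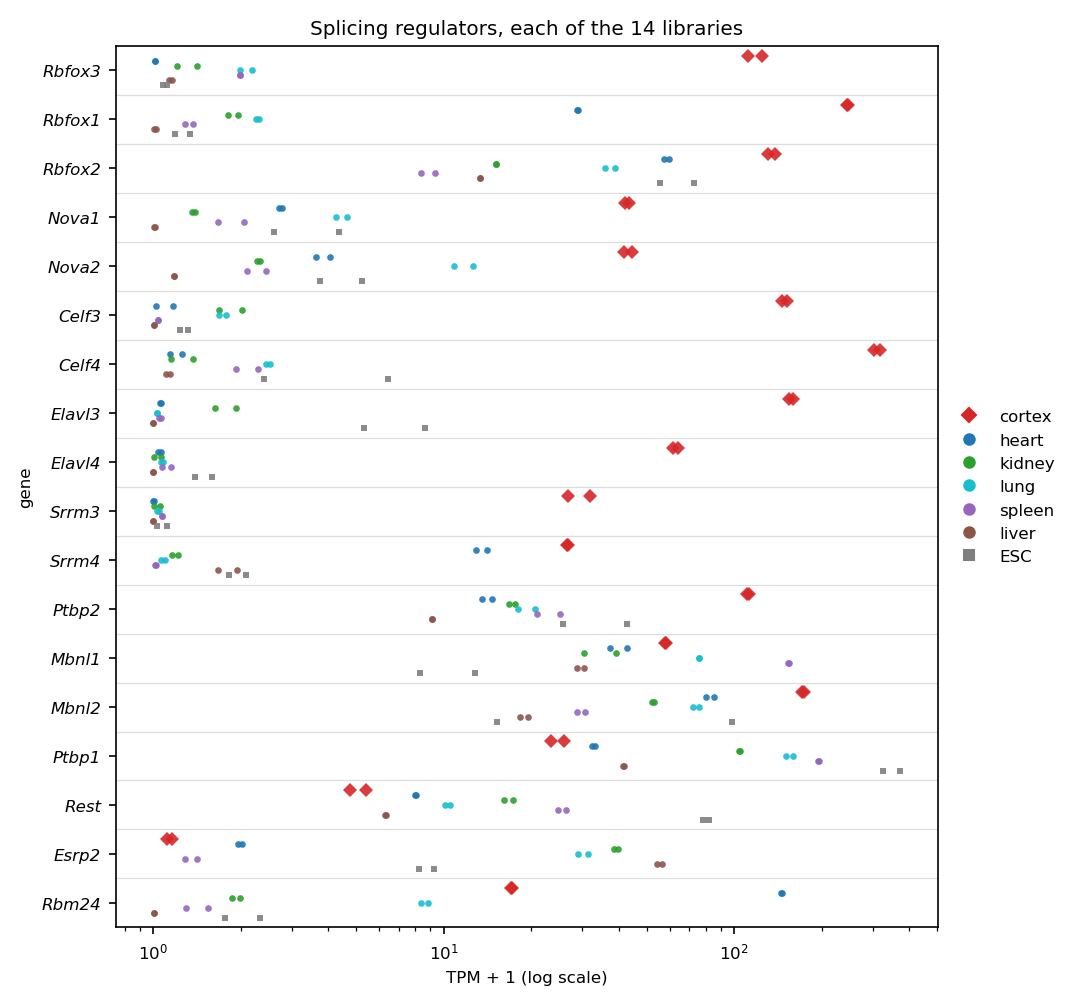
TPM + 1 of splicing regulators on a log axis (x axis), 1 point per library for 14 libraries, with cortex as red diamonds and the other tissues in their own colours. Celf3, Elavl4, Rbfox3 and Srrm3 stand clear in cortex, heart comes nearest for Rbfox1 and Srrm4, and Ptbp1 and Rest have their lowest values in cortex.

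For exons, the rule used 20 or more junction reads in both replicates of cortex and of 3 or more other tissues, on autosomes. Inclusion and skipping reads were tested with a quasi-binomial test moderated with limma, and an exon was called if the largest p over the other tissues passed an adjusted p of 0.05 and PSI differed by 0.1 or more in one direction from each. Of 19107 events tested, 463 were higher in cortex (2.42%) and 280 lower (1.47%). These came to 439 of 17485 distinct exons higher (2.51%) and 246 lower (1.41%), in 552 genes. Both cortex libraries lay above all others with enough reads for 6.09% of the exons and below them for 8.19%, and this held for every called exon. Among them 354 genes had an exon that was more included in cortex, 227 an exon that was less included, and 29 both.

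Exons higher in cortex moved further than those that were lower. Their median difference to the nearest tissue was 0.446 in PSI, against 0.299 for the lower exons, while the cortex replicates differed by medians of 0.0183 and 0.0230. The higher exons had a median PSI of 0.806 in cortex and were mostly skipped elsewhere, with a median of 0.0451 over the medians of the other libraries. The lower exons went from a median of 0.938 elsewhere to 0.358 in cortex, so most of them were still partly included there. A full switch, with PSI of 0.9 or more in both cortex libraries and 0.1 or less in all others, was seen for 14 exons, 12 of them micro-exons, and the reverse for 1 exon, in Map2.

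**Figure D3:**
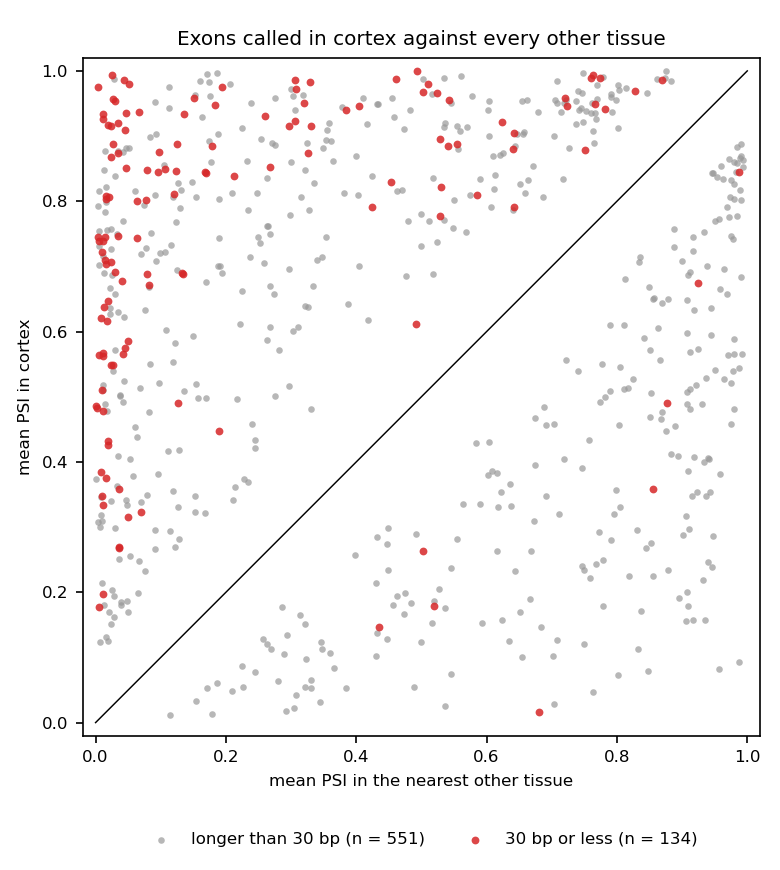
Mean PSI in cortex (y axis) against mean PSI in the nearest other tissue (x axis) for the exons called, 1 point per exon, with exons of 30 bp or less in red and longer ones in grey, and the diagonal marking equal PSI. The upper left holds 126 red points above the diagonal and only 8 red points lie below it.

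Many of the exons higher in cortex were short and kept the reading frame. Of the exons tested 2.40% had 30 bp or less, against 28.7% of those higher in cortex (95% Clopper-Pearson interval 24.5 to 33.2%) and 3.25% of those lower (1.41 to 6.31%). Among the 420 micro-exons tested 126 were higher (30%) and 8 lower (1.9%). Lengths divisible by 3, which keep the reading frame of a coding exon, were found in 79.7% of the higher exons (75.7 to 83.4%), 64.2% of the lower ones (57.9 to 70.2%) and 41.5% of all tested. Exons of 1 gene share their transcripts, and these intervals cover counting error only.

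Within length classes both features held side by side. Of micro-exons divisible by 3, 37.7% were higher in cortex, against 9.57% of the other micro-exons. In the class of 31 to 60 bp the shares were 8.72% and 1.46%, and between 61 and 90 bp 2.95% and 0.814%. The share rose again in exons of 300 bp or more that keep the frame, to 5.67% (14 of 247). Exons lower in cortex had shares of 0.41 to 2.83% over the classes above 30 bp. The most frequent lengths among the 126 higher micro-exons were 24 bp (22 exons), 21 bp (16), 15 bp (15), 18 bp (14) and 27 bp (13), while 7 had 6 bp and 2 had 3 bp. Of these 126 exons 108 had a mean PSI of at least 0.5 in cortex, and 64 stayed at 0.1 or below in every other library with enough reads.

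**Figure D4:**
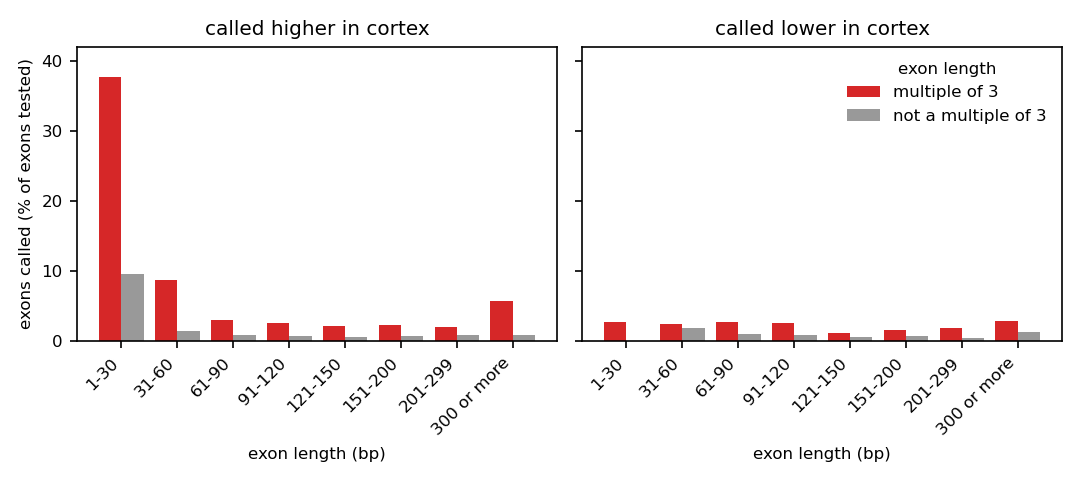
Percentage of tested exons called higher or lower in cortex by exon length in bp, separately for lengths that are and are not multiples of 3. The bar for higher exons is tallest at 30 bp or less with a multiple of 3, at 37.7%, and no bar for lower exons goes above 2.83%.

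The 12 exons with the largest differences were almost fully included in cortex and almost fully skipped elsewhere. All 12 had lengths divisible by 3 and 11 were micro-exons, with cortex PSI between 0.875 and 0.997 and no other library above 0.109. A 24-bp exon of Mef2c (chr13:83654598-83654621 in mm10), a transcription factor of neurons and muscle, had PSI of 0.973 and 0.980 in cortex and 0 to 0.00892 in the 6 other libraries with enough reads (difference 0.972, adjusted p = 9.64e-10). Heart, where Mef2c acts in muscle, was among those and skipped the exon. Camta2, another transcription factor, had a 21-bp exon (chr11:70670891-70670911) at 0.928 and 0.945 that could be measured in all 12 other libraries, where PSI lay between 0.0113 and 0.0818 (adjusted p = 9.22e-10).

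Several of these exons lie in genes of transport and the synapse. Synj1 had a 24-bp exon (chr16:90971564-90971587) at 0.960 and 0.953 against 0.00336 to 0.0395 in 8 libraries. In Dctn1, a subunit of the dynein activator dynactin, a 15-bp exon (chr6:83197319-83197333) was at 0.926 and 0.943 against 0.00598 to 0.0145 in 6 libraries (adjusted p = 1.12e-12). Myo5a, a motor that carries vesicles along actin, had a 9-bp exon (chr9:75187522-75187530) at 0.940 and 0.933 against 0 to 0.109 in 10 libraries. In Shank3, a postsynaptic scaffold, a 24-bp exon (chr15:89538015-89538038) was at 0.924 and 0.929 against 0 to 0.0180 in 8 libraries (adjusted p = 4.43e-10), whereas the level of the gene was not called higher, since lung reached 78.6 TPM.

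The remaining exons of this set were of mixed function. Ablim3, an actin-binding protein, had the only longer exon, of 156 bp, at 0.985 and 0.98995 against at most 0.0435. A 24-bp exon of Cers6, a ceramide synthase, was at 0.997 and 0.989, a 15-bp exon of Sidt1 (chr16:44255967-44255981), a membrane protein of the SID-1 family, at 0.991 and 0.982, and a 30-bp exon of the receptor phosphatase Ptpru (chr4:131794961-131794990) at 0.934 and 0.905. The uncharacterised gene 6430548M08Rik carried a 30-bp exon at 0.928 and 0.905. In Tnnt2, which encodes troponin T of heart muscle, a 30-bp exon (chr1:135843785-135843814) had PSI of 0.956 and 0.875 in cortex from 31 and 43 reads, and a mean of 0.0102 in heart. The gene itself was at 8.27 and 7.88 TPM in cortex and up to 17772 TPM in heart, so these cortex values rest on few reads.

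**Figure D5:**
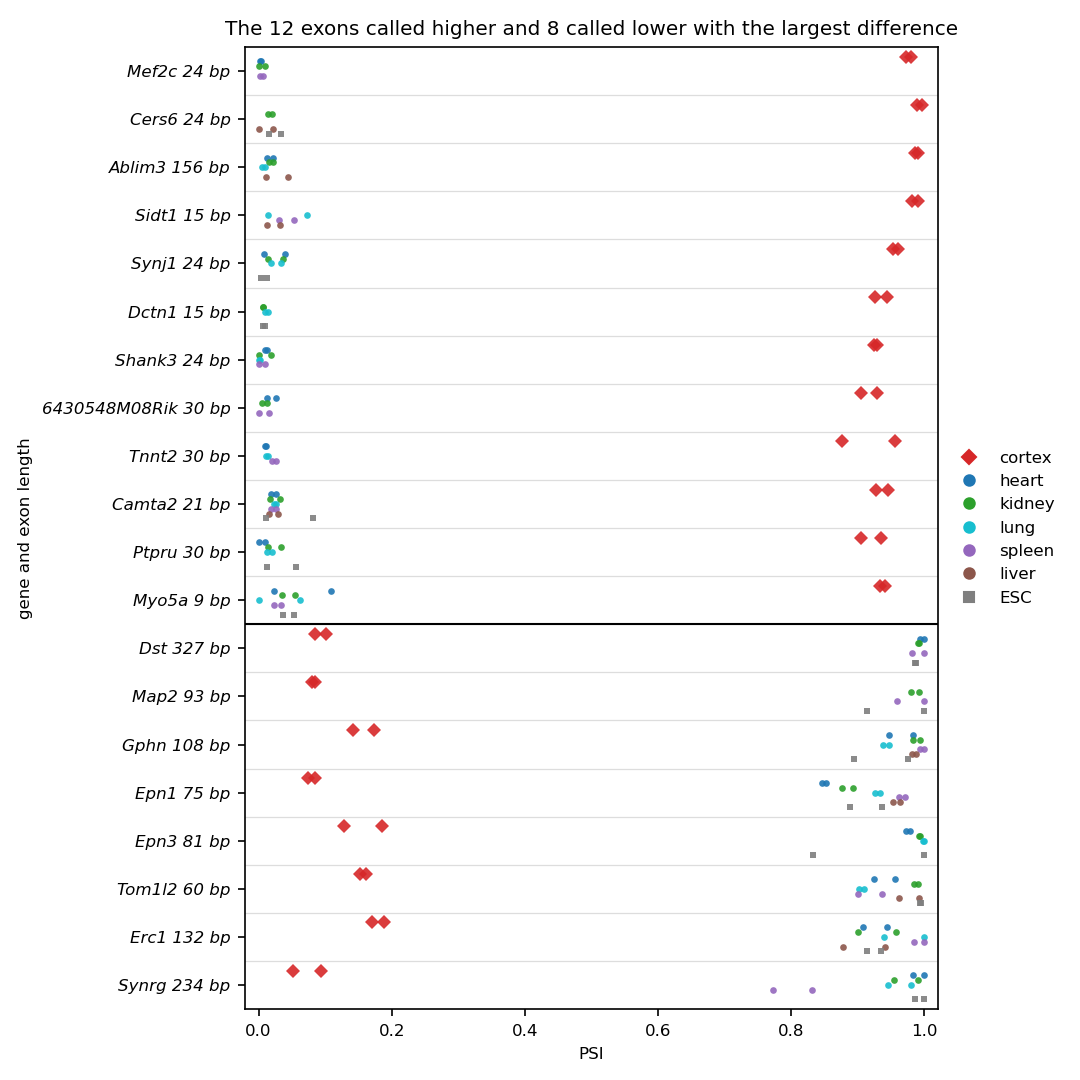
PSI of the 12 exons most above and the 8 exons most below every other tissue, 1 point per library with 20 or more reads, cortex in red and the other tissues in their own colours. The 12 upper exons have cortex values of 0.875 to 0.997 and the 8 lower ones 0.0523 to 0.188, with no overlap between cortex and any other library.

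The 8 exons with the largest loss of inclusion in cortex were longer, 60 bp or more, and all had lengths divisible by 3. Cortex PSI lay between 0.0523 and 0.188 and the other libraries between 0.772 and 1. A 327-bp exon of Dst (chr1:34249804-34250130), a giant linker of the cytoskeleton, was at 0.100 and 0.0848 against 0.981 to 1 in 8 libraries (difference -0.894, adjusted p = 6.39e-09). Map2, a microtubule protein of dendrites, skipped a 93-bp exon (chr1:66431527-66431619), at 0.0848 and 0.0808 against 0.913 to 1 in 6 libraries. Its gene level went the other way, at 295 and 291 TPM in cortex against at most 2.39 TPM.

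Gphn encodes gephyrin, the scaffold of inhibitory synapses, and its 108-bp exon (chr12:78493950-78494057) was at 0.173 and 0.142 in cortex and between 0.894 and 1 in all 12 other libraries (adjusted p = 3.81e-10). A group of 3 exons lie in genes of clathrin traffic. In Epn1 a 75-bp exon (chr7:5093312-5093386) was at 0.0851 and 0.0740 against 0.845 to 0.971 (adjusted p = 1.69e-17), in Tom1l2 a 60-bp exon (chr11:60232898-60232957) at 0.161 and 0.152 against 0.89955 to 0.994, and in Synrg a 234-bp exon (chr11:83986814-83987047) at 0.0523 and 0.0938 against 0.772 to 1.

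Erc1, a scaffold of release sites and of cell edges, skipped a 132-bp exon (chr6:119713680-119713811) at 0.188 and 0.170 against 0.877 to 1. The 81-bp exon of Epn3 (chr11:94494093-94494173), at 0.128 and 0.186 from 66 and 51 reads, was the least certain of the set. Its call was lost without ESC replicate 1 (adjusted p = 0.0582) and with limma on logit PSI (adjusted p = 0.0850).

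Endocytosis and membrane traffic genes, of which 38.2% were called higher by level beside 13.6% of all genes, also differed by exon inclusion. Of 91 exons tested in the listed genes 24 were higher in cortex and none lower, beside 2.51% and 1.41% of all exons. This list, like the others, was chosen with earlier results of these data known. The counts therefore describe its members and are no test of such genes in general. The list does not hold Epn1, Epn3, Tom1l2 and Synrg, each of which had a lower exon, as described above. The absence of lower exons is therefore a statement about the listed genes only. A 54-bp exon of Cltb (chr13:54597026-54597079), a clathrin light chain, was at 0.815 and 0.816 in cortex and at 0.00073 to 0.00614 in all 12 other libraries (difference 0.810, adjusted p = 1.69e-17). Its relative Clta had a 54-bp exon (chr4:44030215-44030268) at 0.712 and 0.730 against 0.0102 to 0.101 (adjusted p = 9.29e-17). A 36-bp exon of Clta, named after its values were seen, was at 0.647 and 0.678 with heart nearest at 0.225, and its adjusted p was 0.0601 with limma on logit PSI.

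Further members of that list bend or tether membranes. Bin1, which curves membranes, had a 108-bp exon at 0.840 and 0.856 against at most 0.025. Itsn1, a scaffold of clathrin pits, had a 15-bp exon (chr16:91842628-91842642) at 0.552 and 0.578 against 0.0118 to 0.0481 in all 12 libraries, and Git1, a scaffold of small GTPase signalling, a 27-bp exon (chr11:77502829-77502855) at 0.934 and 0.934 against 0.00784 to 0.143. The related proteins Asap1 and Asap2 each had a 9-bp exon, at 0.791 and 0.825 and at 0.661 and 0.717, which no other library included above 0.0886. Dnm1 included a 12-bp exon (chr2:32323179-32323190) in nearly all of its transcripts in cortex, at 1.00 and 1.00, against 0.104 to 0.540 elsewhere.

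For the called exons of the clathrin adaptor subunits Ap1b1, Ap2a1 and Ap2b1 the nearest tissue was heart. For Picalm, another clathrin adaptor, it was spleen, at a mean of 0.354, and heart was at 0.0438. A 21-bp exon of Ap1b1 was at 0.882 and 0.889 in cortex and at a mean of 0.540 in heart, with a median of 0.00203 over the other 12 libraries, and a 66-bp exon of Ap2a1 was at 0.849 and 0.858 with heart at 0.672. Both calls were lost with limma on logit PSI (adjusted p = 1). So were those on Ap2b1, Arfgap1 and Picalm, and the one on Ap2b1 was also lost without heart replicate 2 (adjusted p = 0.31).

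Among postsynaptic genes 12 exons of 52 were higher and 3 lower. Homer1, which links receptors to Shank proteins, had a 36-bp exon (chr13:93386345-93386380) at 0.952 and 0.949 against 0.0372 to 0.318 in 10 libraries (adjusted p = 1.57e-05). Camk2d and Camk2g, kinase subunits found in many tissues, had exons of 60 bp at 0.833 and 0.886 and of 33 bp at 0.808 and 0.864, with heart means of 0.177 and 0.263. A 110-bp exon of Dlg4 at 0.991 and 0.993 lost its call without ESC replicate 2 (0.278, adjusted p = 0.242).

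Of 59 exons in cytoskeletal genes 11 were higher and 6 lower. Clasp1 and Clasp2, which hold the growing ends of microtubules, had exons of 27 bp at 0.882 and 0.894 and of 24 bp at 0.713 and 0.777, against at most 0.0502 and 0.0286. Sptan1, the alpha chain of spectrin, had a 15-bp exon at 0.966 and 0.969 against 0.0269 to 0.517 in all 12 libraries. Map4, a microtubule protein of many tissues, was less included at a 190-bp exon, at 0.583 and 0.548 against 0.991 to 1. Mapt, the protein tau, was at 0.00962 and 0.0150 for a 198-bp exon against 0.106 to 0.372, a difference of -0.102 that fell under the limit without cortex replicate 1 or without kidney replicate 2.

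In genes of adhesion and guidance 8 of 31 exons were higher and 2 lower. Agrn, which clusters receptors at the nerve-muscle junction, had a 24-bp exon (chr4:156168546-156168569) at 0.484 and 0.487 in cortex, and at 0 to 0.00143 in 8 other libraries with 697 reads or more (adjusted p = 1.48e-11). A 27-bp exon of the receptor phosphatase Ptprf was at 0.756 and 0.844. Calcium channel genes gave the 4 called exons of the channel list, out of 11 tested, with a 27-bp exon of Cacna1d at 0.989 and 0.976 against at most 0.338 and a 36-bp exon of Cacna1a at 0.936 and 0.904 against at most 0.424. The other 2, in Cacnb1 and Cacna1g, lost their calls with limma on logit PSI (adjusted p = 0.0728 and 0.173), and Cacna1g also without spleen replicate 1 (adjusted p = 0.0702).

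Synaptic vesicle genes gave 3 higher exons of 12 tested, since many of them had too few reads in other tissues. Unc13b, which was not called by level, had a 6-bp exon (chr4:43233904-43233909) at 0.703 and 0.740 against 0 to 0.0212 in 6 libraries (adjusted p = 8.65e-07), and Napb, a factor that recycles the fusion complex, a 47-bp exon at 0.996 and 0.994 against 0 to 0.317. Gabbr1, a subunit of the GABA-B receptor, had an exon (chr17:37067214-37067364) at 0.984 and 0.986 against 0.0159 to 0.304 in all 12 libraries.

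Of the 552 genes with a called exon 104 had 2 or more, 20 had 3 or more and 6 had 4 or more, and the latter are described because of that count. Synj1 had 5 higher exons. Beside the one above, exons of 24 and 21 bp that start at the same base (chr16:90940473-90940496 and chr16:90940473-90940493), and so share their skipping reads, were at 0.979 and 0.982 and at 0.953 and 0.956 against at most 0.0568 in all 12 libraries. A pair of 39-bp exons were at 0.811 and 0.797 and at 0.790 and 0.836, and the latter lost its call without lung replicate 1 (adjusted p = 0.0837).

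Other genes changed in both directions along the transcript. In Erc1 a 12-bp exon (chr6:119734081-119734092) was higher, at 0.839 and 0.854 against 0.0262 to 0.162, while exons of 132, 93 and 84 bp were lower, the last pair sharing their end, and the call on the 93-bp exon was lost without liver replicate 2 (adjusted p = 0.131). Madd, which activates the vesicle GTPase Rab3, had higher exons of 63, 54 and 9 bp, at 0.977 and 0.967, at 0.812 and 0.802 and at 0.536 and 0.593, and a lower one of 70 bp (chr2:91140557-91140626) at 0.242 and 0.203 against 0.746 to 0.871. Dlg1, a scaffold of the PSD-95 family, had higher exons of 36, 21 and 34 bp, of which the first pair share their end, and lower ones of 99 bp (0.336 and 0.335) and 97 bp (0.0344 and 0.0324). With limma on logit PSI the Dlg1 exons of 99, 97 and 34 bp lost their calls (adjusted p = 0.416, 0.0732 and 0.0882).

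Ank2 encodes an ankyrin that ties membrane proteins to spectrin. It included an exon of 6198 bp (chr3:126941610-126947807) at 0.430 and 0.447 in cortex against 0.00382 to 0.0713 in 8 libraries (adjusted p = 0.000341), together with exons of 99 and 24 bp at 0.703 and 0.678 and at 0.961 and 0.956. Its 183-bp exon was lower, at 0.245 and 0.224, a call that was lost without liver replicate 1 or 2 (adjusted p = 0.138 and 0.107). Plekha6 had 5 higher exons, 4 of them with a difference under 0.3, and 3 of these 4 lost their call without 1 library. These were the 69-bp exon without liver replicate 2 (adjusted p = 0.060), the 87-bp exon without either cortex replicate or heart replicate 1 (0.0566 to 0.101) and the 54-bp exon without any one of the cortex or heart replicates (0.0882 to 0.22). Of the 8 lower micro-exons the 15-bp exon of Cadps2 (chr6:23320933-23320947), a priming factor of dense-core vesicles, had the largest difference, at 0.0148 and 0.0173 against 0.440 to 0.980, while a 21-bp exon of Cadps2 was higher, at 0.946 and 0.9495.

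The F1 hybrids carry both genomes in the same nucleus, so inclusion in cortex could be read on each allele separately, from 10338947 to 10857180 allelic junction reads per library and allele. The paper kept only events whose PSI agreed between allelic reads and all reads, a filter that was not applied here. The 2 can differ. The Cltb exon was at 0.815 and 0.816 from all reads and at 0.948 to 0.964 on the alleles, and the Map4 exon at 0.583 and 0.548 and at 0.294 to 0.395. Of the higher exons 366 had 20 or more reads per allele and replicate, and for 354 of them (96.7%) both alleles lay above every other tissue. For the lower exons this was so for 195 of 209 (93.3%). The allelic reads are part of the cortex reads behind the calls, so these shares are no independent check of them. The median absolute PSI difference between the alleles was 0.0305 in higher and 0.0331 in lower exons, against 0.0145 over 12856 exons, most of which were near 0 or 1. An allelic difference of 0.2 or more was found for 5.19% of the higher and 9.09% of the lower exons, against 3.24% of all. Among the 12 top exons 8 had enough reads, with PSI of 0.833 to 1 on one allele and 0.805 to 1 on the other, and 6 of the 8 lower ones, with 0.0265 to 0.159 and 0.0288 to 0.146. The strain of each allele is not named in the tables.

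Most genes with a called exon were not called by level. Among 7351 genes with a tested exon and a TPM value 8.60% were called higher by level. The share was 25.1% (89 of 354) in genes with a higher exon, 16.3% (37 of 227) in those with a lower exon and 9 of 29 in those with both. Of all genes called higher by level 3.96% held a called exon, a number limited by the need for reads in 3 other tissues, which genes expressed in cortex alone do not meet.

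For called exons heart was the nearest tissue more often than any of the other 5. It was nearest for 197 of the 439 higher exons (44.9%) and for 91 of the 246 lower ones (37.0%), against 3407 of all 17485 (19.5%). In the 7425 exons that could be measured in all 6 other tissues, heart was nearest for 118 of 235 higher exons (50.2%) against 1757 of 7425 (23.7%). Over all features, the correlation with cortex was 0.650 for log2(TPM + 1) and 0.905 for PSI in heart, and between 0.471 and 0.603 and between 0.880 and 0.895 in the other 5 tissues. These correlations are across 21772 genes and 11128 to 15814 exons of tissue means, and genes and exons are not independent replicates. By the paper, cortex, heart and kidney were sequenced with longer reads than lung, spleen and ESC, and the longer reads were trimmed to match. Whether this bears on the nearest tissue was not tested.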

How the data were processed

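The authors aligned reads with HISAT2 2.0.1 to mm10 and to a SPRET/EiJ genome, and deposited junction read counts of skipped exon events, made with rMATS on an Ensembl annotation, with both replicates of a tissue in one list. The effective lengths deposited beside them, entered here under the unit score, count the read positions that only one form of the event has. The deposited TPM values were made by the authors with featureCounts, strand-specifically, and fragments over several genes were counted fractionally. The authors' p-values and PSI differences were not used.

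PSI was calculated anew from the junction counts, each divided by its effective length. Genes with at least 1 TPM in both replicates of a tissue were tested with limma 3.58.1 (R 4.3.3) on log2(TPM + 1), and exons with a quasi-binomial model, dispersion of at least 1, moderated by the squeezeVar function of limma toward a prior that follows depth. In both, all 14 libraries entered 1 model, the largest two-sided p over the other tissues was taken, and p-values were adjusted over all features (Benjamini-Hochberg). Where several events shared an exon, that with the most reads stood for it. SE are of the log2 difference to the nearest tissue. On simulated data the tests recovered 62% of exons shifted by 0.2 and 87% by 0.4 (19107 events), and 83% of genes shifted by 1.5 and 99% by 3 (20553 genes). The deposited TPM table holds no read counts, so the depth behind a TPM value is unknown from it.

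Named were the 12 higher and 8 lower genes and exons with the largest difference, members of gene lists, and the called exon with the largest difference in each listed gene. Some of the genes that meet this rule are not reported here. The members and lists were chosen with earlier results of these data known, and exons and genes said to be named for other reasons were chosen after their values were seen. Gene coordinates are from RefSeq (GRCm38.p6), in which 17 of 20 named genes were found by symbol, and exon coordinates are from the deposited tables (mm10). Whether an exon is coding was not assigned. Python 3.11.15 with numpy 2.4.6, pandas 2.3.3, scipy 1.17.1 and matplotlib 3.10.9 was used.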

Additional observations from a re-analysis of the deposited data

How the results depend on the processing

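Counts of 2957 higher and 125 lower genes, and of 463 higher and 280 lower exon events, were recomputed under each alternative. Against the mean of the 6 other tissues 6511 genes were higher and 3357 lower, and with a log2 limit of 2 there were 1657 and 20. Lower genes numbered 229 with a pseudocount of 0.1, 378 with centred libraries, 300 without ESC and 287 without liver. Limma on logit PSI gave 248 higher and 62 lower events, and events measured in all 6 tissues 249 and 177. Under the other alternatives counts stayed within 1.5 times, and leaving out 1 library gave 2867 to 2995 higher and 110 to 148 lower genes and 428 to 484 higher and 221 to 309 lower events. No call changed sign.

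Same-numbered replicates of 2 tissues deviated together with r of -0.0498 to 0.257 for genes, over 0.1 in 4 of 21 pairs, and -0.0814 to 0.0709 for exons. The study took the organs from 2 animals, and the labels do not say whether a number marks an animal. ESC were separate clones. With the replicate block 2952 genes were higher and 126 lower, and 460 events higher and 264 lower, each within 1.5 times. Among the exons checked one by one, 59 bp of Ptprs (adjusted p = 0.1002) and 498 bp of Sgip1 (0.0672) lost their calls under the block. With 2 libraries a tissue, a difference seen for 1 pair of animals cannot be told from one of the tissue, and cortex had the fewest junction reads. The causes of these changes were not tested.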
